A study of Mus musculus with 24 samples.

Results

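The Ly6 genes *Ly6d*, *Ly6e*, *Ly6a*, *Ly6c1* and *Ly6h* were followed in 4 tissues of wild-type (WT) mice, the liver, the heart, the brain and skeletal muscle, and in those of mice homozygous for a *Rap1* knockin allele (KI/KI). The genes were chosen by the liver values of *Ly6d*, whose level separated the genotypes there, together with 4 relatives, so the liver differences between genotypes are given as a description and carry no p-value. They are 5 of 21368 genes named on the arrays and are covered by 7 probes: 1 each for *Ly6d*, *Ly6e* and *Ly6a*, and 2 each for *Ly6c1* and *Ly6h*. All 7 probes are described. Of 50 listed genes of the Ly6/uPAR family, 43 had a named probe, and the other 38 genes besides these 5 serve as the comparison. The remaining 7 listed genes were not analysed here.

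RAP1, encoded by *Terf2ip*, binds telomeres through its partner TRF2, and the knockin allele carries a single amino acid change, made with CRISPR/Cas9, that removes this binding. The comparison of genotypes is thus between mice with and without RAP1 at telomeres. The authors also report less RAP1 protein, and a larger cytosolic share of it, in KI/KI embryonic fibroblasts and brains. The comparison does not separate these changes from one another. The mice were males, backcrossed to C57BL/6N (C57BL6 in the labels). The 3 WT mice are called WT1 to WT3 and the 3 KI/KI mice KI1 to KI3. At 5 months, WT1 and KI1 were older than the remaining 4 mice, which were 2 months old. Each of the 6 mice gave all 4 tissues, 1 array for each, which made 24 one-color arrays. Each value is a log2 level from which the array's own 75th percentile was subtracted, so a level of 0 is that percentile and a difference of 1 is a doubling. Because different probes bind with different strength, each probe was compared only with itself across samples.

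Ly6 proteins are small, cysteine-rich proteins of the 3-finger fold, most of them held at the outer cell surface by a glycosylphosphatidylinositol anchor. *Ly6a* encodes Sca-1, known from hematopoietic stem cells and from endothelium. *Ly6c1* encodes part of the Ly-6C antigen of endothelium and leukocytes. *Ly6e* encodes a widely made, interferon-inducible surface protein that serves as the receptor for syncytin-A in the placenta. *Ly6d* marks B cell-biased lymphoid progenitors and squamous epithelia, and *Ly6h* is a neuronal member that acts on nicotinic acetylcholine receptors. In the RefSeq annotation (GRCm38.p6) all of them lie on chromosome 15, in the order *Ly6d*, *Ly6e*, *Ly6a*, *Ly6c1*, *Ly6h*, within a run of 22 protein-coding genes of which 16 are on the family list.

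The RefSeq promoter table (GRCm38.p6) held 1 of the 5 genes, *Ly6c1*, with a pair of start sites. The window of the upstream start (chr15:75048788-75049087, minus strand, 250 bases before the start to 50 after it) is shown because the transcript of *Ly6c1* differed steeply between tissues, as described further on:
*Ly6c1*: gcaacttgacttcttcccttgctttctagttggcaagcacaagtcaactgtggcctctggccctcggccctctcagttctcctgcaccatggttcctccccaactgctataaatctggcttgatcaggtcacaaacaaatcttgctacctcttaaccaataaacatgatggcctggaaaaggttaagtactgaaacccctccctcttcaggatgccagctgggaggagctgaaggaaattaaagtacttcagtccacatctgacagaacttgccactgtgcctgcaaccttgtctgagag
Capitals would mark matches to 3 motifs searched on both strands, the telomere repeat TTAGGG, a core of the interferon-stimulated response element and the STAT motif TTCNNNGAA. None of the 3 had a match in this window or in that of the other start, and they occurred in 10.6%, 3.44% and 8.3% of all 32851 promoter windows of the same length.

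The 75th percentile of the signal ranged from 470.7 in muscle to 1389 in liver, and 56.5% to 72.7% of the probes on an array were well above background. The number of arrays limits the precision. Liver, brain, heart and muscle arrays were the highest in the summed levels of their own hepatocyte, neuron, cardiac and skeletal muscle markers. *Terf2ip* was well above background on all 24 arrays, and its KI/KI minus WT difference lay between -0.41 and 0.12 by its brighter probe, with a limma adjusted p of at least 0.663 in the brain, heart and muscle. The probe does not tell the knockin transcript from the WT transcript. Some arrays stood apart. The muscle array of KI3 was high in neuron markers and that of KI1 in neutrophil markers, the heart arrays of KI1 and KI3 in fat cell markers, and the brain array of KI3 in interferon-induced genes. Results that touch these arrays are given with their marker values. In tissue RNA, fewer cells of a type and less RNA per cell cannot be told apart.

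*Ly6d* is the gene on which the choice rested. In the liver its log2 level was -1.67, -1.17 and -0.97 in WT1, WT2 and WT3, and 0.12, 0.03 and 0.33 in KI1, KI2 and KI3. The 3 KI/KI livers lay above the 3 WT livers, with a gap of 1.00 between the lowest KI/KI and the highest WT value. The WT mean was -1.27 ± 0.36 (SD, n = 3) and the KI/KI mean 0.16 ± 0.15 (SD, n = 3), which differed by 1.43 (standard error 0.24), or 2.69-fold. Among the 35240 liver probes measured, 176 had a larger difference in either direction, and at 5.84% of these probes the genotypes did not overlap. The next probes of the family by their gap were those of *Lynx1* (0.15), *Gml2* (0.05, KI/KI lower) and the second probe of *Ly6c1* (0.05), and the first one with overlap was *Ly6k* (overlap of 0.07).

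The other cluster genes whose liver genotypes did not overlap, besides *Ly6c1*, had smaller differences. *Lynx1*, a modulator of nicotinic receptors that lies next to *Ly6d*, had levels of -1.38, -1.81 and -1.43 in WT and -1.04, -0.998 and -1.23 in KI/KI livers, and the genotypes differed by 0.45 (standard error 0.21). *Gml2* had -3.28, -2.75 and -3.34 in WT and -3.39, -3.84 and -3.80 in KI/KI livers, and the genotypes differed by -0.55 (standard error 0.25). In all, 30 family probes were measured in the liver, 18 higher and 12 lower in KI/KI mice, with a median difference of 0.07 against -0.01 over all probes.

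Marker sums of B cells, squamous epithelium and bile duct cells are given beside the liver values of *Ly6d*. The log2 of the summed levels of 10 B cell markers was 1.24 to 1.41 in WT and 1.18 to 1.33 in KI/KI livers. That of 10 squamous epithelial markers was 1.53 to 2.11 in WT and 1.81 to 2.29 in KI/KI livers, and that of 6 bile duct markers was 0.58 to 0.92 and 0.30 to 1.21. The brightest squamous marker, *Trp63*, stood at 1.66, 0.84 and 1.19 in WT and 1.89, 1.25 and 1.94 in KI/KI livers. The next brightest, *Krt13*, had a mean liver level of -1.69, so the squamous sum says little about the dimmer squamous markers. *Trp63* had higher mean levels in the muscle (3.44), brain (2.76) and heart (2.30) than in the liver (1.46). No marker of the 3 lists lay higher in all KI/KI livers than in all WT livers, and 1 of each list lay lower. Over all liver probes, 5.84% did not overlap in either direction. The brightest B cell markers in the liver were *Cd79b*, at -0.26, 0.35 and -0.08 in WT and -0.44, 0.12 and -0.21 in KI/KI livers, *Cd22* and *Vpreb3*. The ranges of these 3 lists overlapped between the genotypes. In the same livers 2 of 8 monocyte and macrophage markers, *Adgre1* and *Fcgr1*, and 2 of 8 fat cell markers, *Adipoq* and *Fabp4*, lay higher in every KI/KI mouse and none of either list lower. These 4 are named because of their values. The marker sums overlapped. The macrophage sum was 5.41, 5.71 and 5.72 in WT and 5.74, 6.06 and 5.63 in KI/KI livers. The fat cell sum was 8.58, 8.94 and 8.54 in WT and 8.75, 8.58 and 7.83 in KI/KI livers. It followed its brightest marker, *Car3*, at 8.52, 8.91 and 8.50 in WT and 8.61, 8.54 and 7.77 in KI/KI livers. *Fabp4* stood at 2.56, 2.37 and 2.44 in WT and 2.69, 2.89 and 2.64 in KI/KI livers. The fat cell sum therefore says little about its dimmer markers. The part of any of these marker lists in the *Ly6d* values was not tested.

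**Figure D1:**
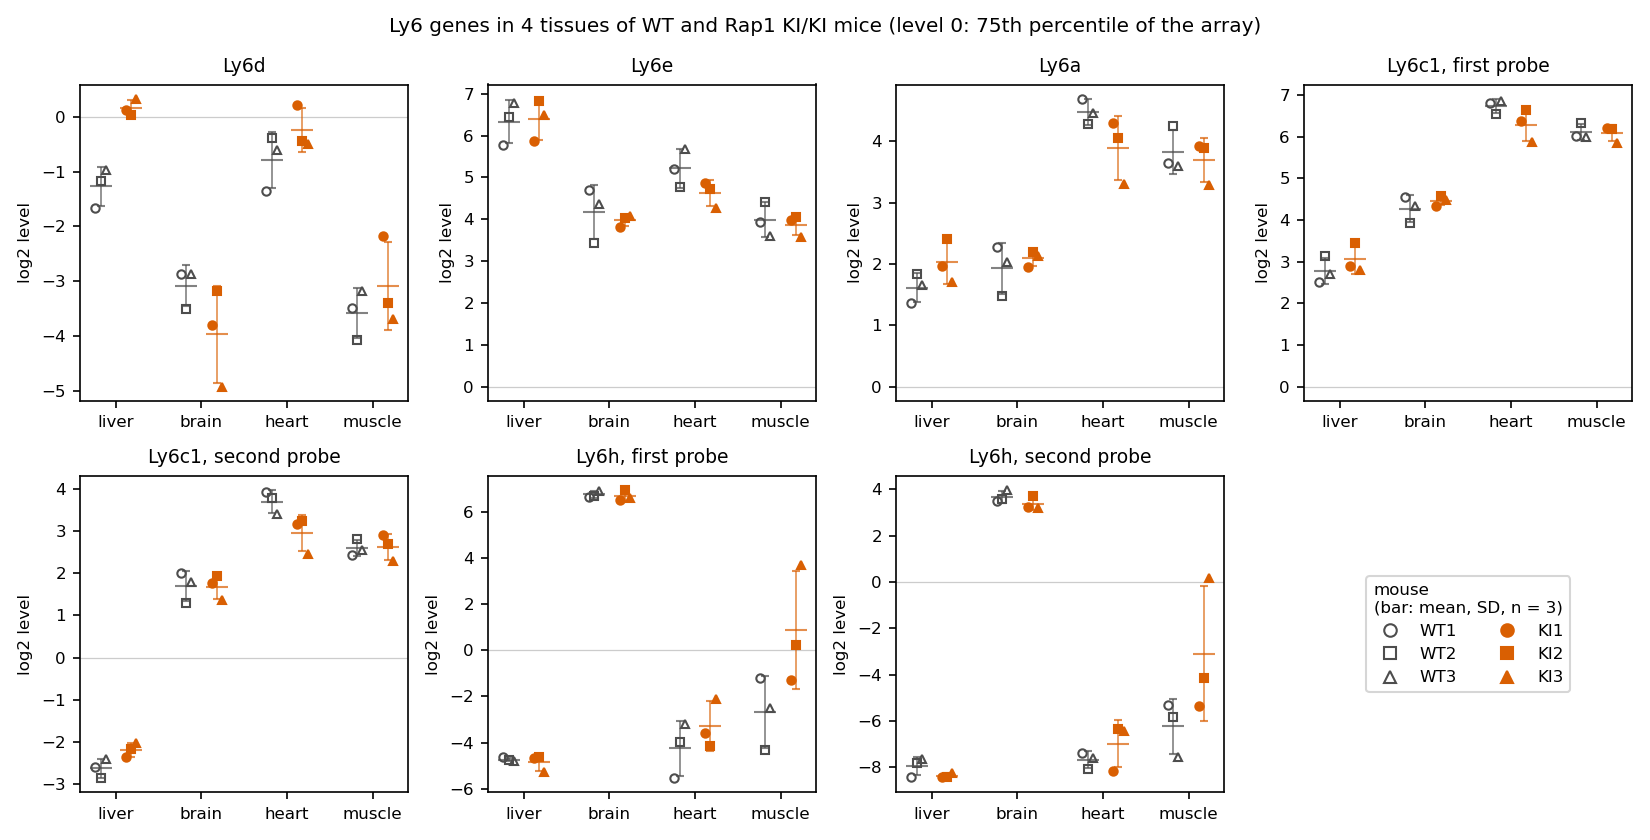
Log2 levels (y axis, 0 at the array's 75th percentile) of the 7 probes in liver, brain, heart and muscle (x axis), with open gray symbols for WT and filled orange symbols for KI/KI mice, 1 symbol shape per mouse number, and bars for the mean and SD of 3 mice. The 3 KI/KI livers lie above the 3 WT livers for *Ly6d*, *Ly6h* is high in the brain, and its muscle value of 3.69 in KI3 stands far from the other muscles.

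The liver pattern of *Ly6d* was not seen in the brain, heart or muscle, contrasts that were not used to choose the genes. In the brain the levels were -2.87, -3.51 and -2.86 in WT1 to WT3 and -3.81, -3.17 and -4.92 in KI1 to KI3. KI1 and KI3 lay below the WT mice and KI2 among them, and the difference was -0.88 (standard error 0.47, limma adjusted p = 1). It was -0.93 on the slide that held WT1 and KI1 and -0.86 on the slide of the other 4 brain arrays. Without KI3 it was -0.41.

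In the heart *Ly6d* stood at -1.35, -0.38 and -0.60 in WT and at 0.22, -0.44 and -0.49 in KI/KI mice. The genotypes overlapped, with WT1 lowest and KI1 highest, and the difference was 0.54 (standard error 0.34, limma adjusted p = 0.683). It was 0.76 on the slide with 2 mice of each genotype and 0.11 on the other slide, which held 1 of each. The log2 of the summed levels of 10 B cell markers was 2.25, 2.91 and 2.72 in WT and 3.21, 2.97 and 2.90 in KI/KI hearts. It was lowest in WT1 and highest in KI1 as for *Ly6d*. Of the 10 markers, 2 lay higher in every KI/KI heart, where 14.7% of all heart probes did not overlap in either direction. The part of B cell transcripts in these values was not tested.

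In the muscle the levels were -3.49, -4.08 and -3.17 in WT and -2.17, -3.40 and -3.69 in KI/KI mice. Only KI1 lay above all WT muscles, and the difference was 0.50 (standard error 0.44, limma adjusted p = 0.939). Without KI1 it was 0.04. The log2 of the summed levels of 9 neutrophil markers was 1.13, 1.96 and 0.67 in WT and 6.59, 1.81 and 3.80 in KI/KI muscles. Of the 9 markers, 3 lay higher in every KI/KI muscle, where 6.44% of all muscle probes did not overlap in either direction. The brightest neutrophil marker, *S100a9*, stood at 5.92 in the KI1 muscle and at -0.87 to 0.91 in WT muscles. The part of neutrophil transcripts in the *Ly6d* values was not tested.

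*Ly6e* did not separate the genotypes in any tissue. In the liver its levels were 5.77, 6.44 and 6.78 in WT and 5.86, 6.82 and 6.48 in KI/KI mice, and the difference was 0.06 (standard error 0.35). In the brain they were 4.70, 3.44 and 4.37 in WT and 3.82, 4.03 and 4.07 in KI/KI mice. The 3 KI/KI brains lay inside the range of the WT brains. In KI3, the brain array with the highest summed level of 14 interferon-induced genes (5.13, against 2.83 to 3.47 in the other 5 brains), *Ly6e* stood at 4.07 and *Ly6a*, which is also interferon-inducible, at 2.13. Both values lay within the range of the other 5 brains, 3.44 to 4.70 for *Ly6e* and 1.47 to 2.28 for *Ly6a*. The brightest of these interferon-induced genes were *Isg15*, *Ifit3* and *Rtp4*, at 2.87, 2.34 and 2.19 in the KI3 brain.

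In the heart *Ly6e* stood at 5.20, 4.76 and 5.69 in WT and 4.87, 4.71 and 4.27 in KI/KI mice, a difference of -0.60 (standard error 0.30, limma adjusted p = 0.653). The genotypes overlapped through WT2. The difference was -0.19 on the slide with 2 mice of each genotype and -1.42 between KI3 and WT3 on the other. In the muscle the levels ran from 3.60 to 4.42 in WT and from 3.58 to 4.05 in KI/KI mice, and the difference was -0.12 (standard error 0.27, limma adjusted p = 0.95).

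*Ly6a* was measured at 1.36, 1.84 and 1.65 in WT and 1.97, 2.41 and 1.70 in KI/KI livers, which overlapped through KI3, and the difference was 0.41 (standard error 0.25). In the heart it stood at 4.69, 4.28 and 4.46 in WT and 4.30, 4.05 and 3.30 in KI/KI mice. KI2 and KI3 lay below all WT hearts and KI1 just above WT2. The heart difference was -0.59 (standard error 0.31, limma adjusted p = 0.653). It was -0.31 on the slide with 2 mice of each genotype and -1.16 on the other. In the brain the difference was 0.16 (standard error 0.25, limma adjusted p = 1) and in the muscle -0.13 (standard error 0.28, limma adjusted p = 0.948), with overlap in both.

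The first, brighter probe of *Ly6c1* gave 2.52, 3.12 and 2.69 in WT and 2.90, 3.45 and 2.80 in KI/KI livers, and the genotypes overlapped. Its second probe gave -2.61, -2.86 and -2.41 in WT and -2.37, -2.16 and -2.03 in KI/KI livers, which did not overlap by a gap of 0.05. The liver difference was 0.28 (standard error 0.27) by the first and 0.44 (standard error 0.21) by the second probe. The probes carry accessions of different *Ly6c1* transcripts, and *Ly6c1* has a close paralog, *Ly6c2*, that was not analysed here, so the share of its transcripts in the signal was not tested.

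In the heart the first *Ly6c1* probe stood at 6.80, 6.54 and 6.86 in WT and 6.37, 6.63 and 5.86 in KI/KI mice, a difference of -0.45 (standard error 0.26, limma adjusted p = 0.671). The second probe gave 3.92, 3.78 and 3.40 in WT and 3.17, 3.24 and 2.46 in KI/KI hearts. By the second probe the 3 KI/KI hearts lay below the 3 WT hearts, with a difference of -0.74 (standard error 0.29, limma adjusted p = 0.646). This was the only one of 6 member probes tested in the heart whose genotypes did not overlap, where 14.7% of all heart probes did not overlap and 7.51% had an unadjusted p under 0.05. By the first and second probe the brain differences were 0.20 and -0.02 and the muscle differences -0.03 and 0.03, each within 1 standard error of 0.

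The endothelial and the fat cell marker sums also separated these hearts. The log2 of the summed levels of 12 endothelial markers, all 12 well above background on every heart array, was 7.74, 7.70 and 8.02 in WT and 7.42, 7.66 and 7.45 in KI/KI hearts, which lay below the WT hearts. Of the 12, 2 lay lower in every KI/KI heart, against 14.7% of all heart probes without overlap in either direction. Of the brightest endothelial markers, *Kdr*, the VEGF receptor of endothelium, stood at 4.63, 4.12 and 4.79 in WT and 3.96, 4.20 and 3.58 in KI/KI hearts, with overlap through KI2, and *Egfl7* and *Flt1* overlapped as well. The sum of 8 fat cell markers was 7.90, 7.87 and 7.97 in WT and 8.75, 8.17 and 9.56 in KI/KI hearts. Its brightest marker, *Fabp4*, stood at 7.90, 7.63 and 7.77 in WT and 7.74, 7.95 and 8.17 in KI/KI hearts, with overlap through KI1. Of the 8 markers, 2, *Cfd* and *Car3*, lay higher in every KI/KI heart, against the same 14.7%. KI3 had the lowest *Ly6e*, *Ly6a* and *Ly6c1* values and the highest fat cell marker sum. The part of either marker list in the *Ly6* values was not tested.

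*Ly6h* was low in the liver and the heart, and there its genotypes overlapped. By its first probe the liver levels ran from -4.80 to -4.64 in WT and from -5.28 to -4.63 in KI/KI mice. The heart levels were -5.54, -3.99 and -3.22 in WT and -3.58, -4.17 and -2.09 in KI/KI mice, and WT1 was not well above background. The heart difference was 0.97 (standard error 0.73, limma adjusted p = 0.72). In the brain, where the gene is strongly expressed, the levels were 6.66, 6.70 and 6.93 in WT and 6.54, 6.94 and 6.62 in KI/KI mice, with a difference of -0.06 (standard error 0.19, limma adjusted p = 1) by the first probe and -0.29 (standard error 0.23, limma adjusted p = 1) by the second.

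In the muscle *Ly6h* had the widest spread of the 5 genes. Its first probe gave -1.20, -4.33 and -2.48 in WT and -1.30, 0.25 and 3.69 in KI/KI mice. KI1 lay within the WT range, KI2 above it and KI3 far above it, and the difference was 3.55 (standard error 1.31, limma adjusted p = 0.939). Without KI3 it was 2.15. The second probe was well above background only in KI2 and KI3 among the muscles, at -4.13 and 0.18, and was not tested there.

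The neuron markers were high in the same KI3 muscle. The log2 of the summed levels of 10 neuron markers was 3.64, 4.27 and 4.20 in WT and 4.37, 3.98 and 6.26 in KI/KI muscles. Of 9 neuron markers with a value on all 6 arrays, 3 lay higher in every KI/KI muscle. Over all muscle probes, 6.44% did not overlap in either direction. *Eno2*, the neuronal enolase, stood at 3.37 in KI3 and at -1.93 to -0.89 in the other muscles. *Snap25*, a protein of synaptic vesicle release, stood at 5.09 in KI3 and at 3.51 to 4.16 in the others, and *Stmn2* at 2.45 and at -1.38 to 0.18. In KI2 *Ly6h* stood above all WT muscles, and the marker sum of 3.98 lay within the WT range. *Snap25*, the brightest marker of the sum, stood at 3.85 in KI2 and at 3.51 to 4.16 in WT muscles. The sum therefore says little about the dimmer neuron markers in KI2. The part of neuron transcripts in the *Ly6h* values was not tested.

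**Figure D2:**
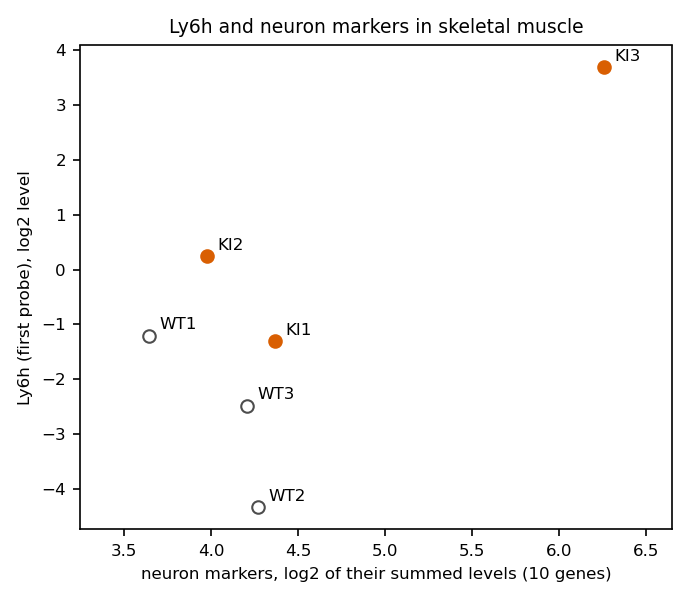
Log2 level of the first *Ly6h* probe (y axis) against the log2 of the summed levels of 10 neuron markers (x axis) in the 6 skeletal muscle arrays, open gray circles for WT and filled orange circles for KI/KI mice. KI3 lies apart on both axes (6.26 and 3.69), and KI2 has the next highest *Ly6h* level (0.25) at a marker sum of 3.98.

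**Figure D3:**
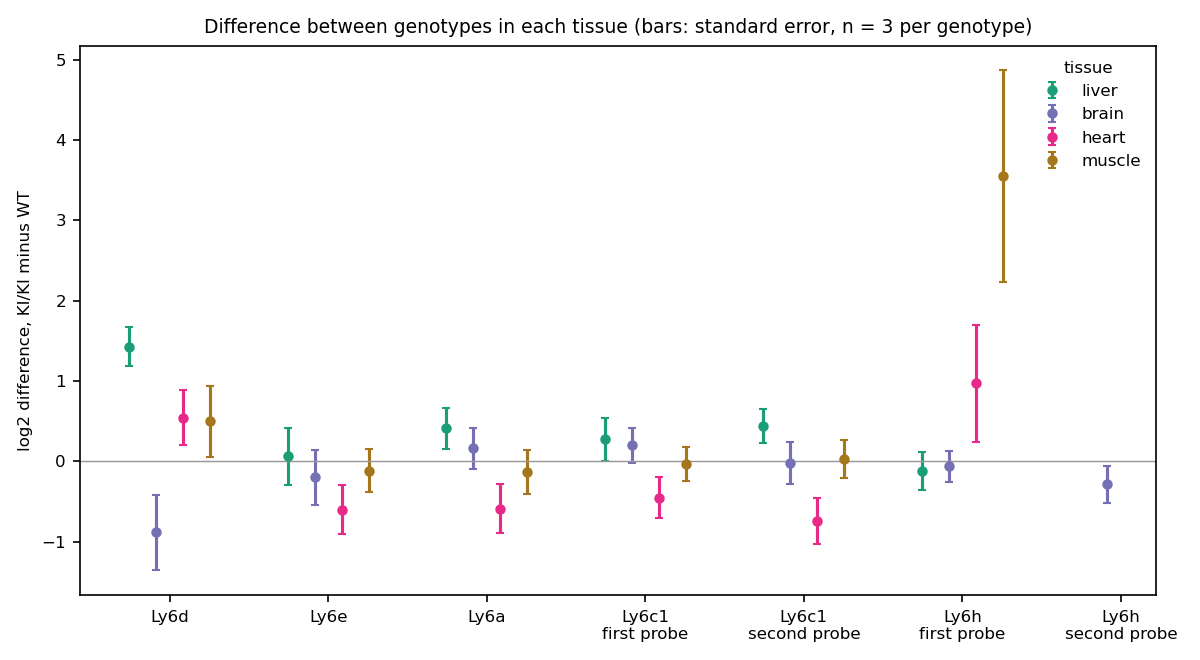
Log2 difference between KI/KI and WT mice (y axis, points) with its standard error (bars, n = 3 per genotype) for the tested probes (x axis) in each tissue. The liver values are a description because they chose *Ly6d*. Outside the liver, every bar of *Ly6d* reaches less far from 0 than the liver value of 1.43, and the heart values of *Ly6e*, *Ly6a* and *Ly6c1* lie below 0.

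None of the 5 genes was called between the genotypes outside the liver. At an adjusted p of 0.05, limma called 0 of 35 brain, 0 of 34 heart and 0 of 29 muscle probes of the family, those of the 5 members included. Over all probes the share called was 0% in each of these tissues. At an unadjusted p under 0.05 there were 1 brain, 2 heart and 1 muscle probe of the family, against 2.62%, 7.51% and 2.48% of all probes tested. They were *Cd177*, *Lynx1*, the second probe of *Ly6c1* and *Ly6h*. *Cd177*, a neutrophil surface protein, was well above background on the 3 WT brain arrays but only on that of KI2 among the KI/KI brains, so no size is given for its difference (limma adjusted p = 1). The first *Lynx1* probe stood at 5.76, 5.61 and 6.31 in WT and 5.22, 5.39 and 4.72 in KI/KI hearts, without overlap. Its difference was -0.79 (standard error 0.29, limma adjusted p = 0.646). The second *Lynx1* probe overlapped between the genotypes, with a heart difference of -0.26 (standard error 0.29, limma adjusted p = 0.798).

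Genotypes that did not overlap were found at 3 of 35 brain, 2 of 34 heart and 1 of 29 muscle probes of the family, against 7.73%, 14.7% and 6.44% of all probes. Besides those named above they were *Ly6g6d* and *Ly6g6e*, Ly6 genes of the major histocompatibility complex, which were higher in KI/KI brains by 0.63 (standard error 0.29) and 0.82 (standard error 0.37), and *Cd59b*, a complement regulator, which was lower in KI/KI muscles by 0.37 (standard error 0.21). These 3 genes were chosen after their values were seen. Brain, heart and muscle had median differences of -0.09, -0.08 and -0.13 over the family probes, against -0.05, -0.02 and -0.07 over all probes.

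The genotype differences were also compared between brain, heart and muscle in 1 limma fit of all 24 arrays. For *Ly6d* the heart difference exceeded the brain difference by 1.43 and the muscle difference exceeded it by 1.38 (limma adjusted p = 1). *Ly6d* and both *Ly6h* probes had an unadjusted p under 0.05, as did 1440 of all 42463 probes. At an adjusted p of 0.05 the test called 0 of 7 member probes and 0% of all 42463 probes tested.

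Between tissues, by contrast, each of the 5 genes differed. In the fit of all 24 arrays, with each tissue averaged over the genotypes, limma called 23 of 30 comparisons of 5 genes and 6 pairs of tissues. The share of all 42463 probes called was 79% between liver and brain, 66.7% between liver and heart, 71.1% between liver and muscle, 67.7% between brain and heart, 70.2% between brain and muscle and 43.5% between heart and muscle. Calls of this kind are therefore the rule on these arrays. The same 6 mice gave all tissues, and the RNA was extracted with 1 kit for liver and brain and another for heart and muscle, so kit and tissue cannot be told apart in comparisons across the kits. No slide held liver arrays with heart or muscle arrays, or brain arrays with muscle arrays. In these pairs of tissues slide and tissue differed together.

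*Ly6d* fell into a high pair and a low pair of tissues. Its lowest, median and highest levels were -1.67, -0.47 and 0.33 in the liver and -1.35, -0.47 and 0.22 in the heart. In the brain they were -4.92, -3.34 and -2.86, and in the muscle -4.08, -3.45 and -2.17. The lowest liver or heart array lay above the highest brain or muscle array. The liver exceeded the brain by 2.97 and the muscle by 2.78 (standard error 0.30, limma adjusted p = 2.55e-08 and 9.91e-08), and the heart exceeded the brain by 3.02 and the muscle by 2.83 (adjusted p = 3.21e-08 and 2.76e-07). Liver and heart did not differ beyond their spread (-0.05, adjusted p = 0.905), nor did brain and muscle (-0.19, adjusted p = 0.582). Within slides, the liver minus brain difference was 2.79, the brain minus heart difference -3.13 and the heart minus muscle difference 2.78. After normexp background correction brain and muscle differed (-0.49, adjusted p = 0.0187).

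*Ly6e* was highest in the liver, at 5.77, 6.46 and 6.82 (lowest, median and highest array). The heart followed with 4.27, 4.82 and 5.69, the brain with 3.44, 4.05 and 4.70, and the muscle with 3.58, 3.96 and 4.42. Every liver array lay above every other array. The liver exceeded the heart by 1.44 (standard error 0.25, limma adjusted p = 3.62e-05), the brain by 2.29 and the muscle by 2.43. The heart exceeded the muscle by 0.99 (adjusted p = 0.00278) and the brain by 0.85 (adjusted p = 0.00502), and brain and muscle did not differ beyond their spread (0.15, adjusted p = 0.612). After quantile normalization the heart and brain no longer passed the threshold (brain minus heart -0.36, adjusted p = 0.229), whereas brain and muscle did (0.83, adjusted p = 0.00822). With the slide as a block, the liver exceeded the heart by 1.19 (adjusted p = 0.0518).

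*Ly6a* and *Ly6c1*, neighbors on the chromosome, were both highest in the heart and muscle. *Ly6a* ran from 3.30 to 4.69 (median 4.29) in the heart and from 3.28 to 4.24 (median 3.76) in the muscle. Its brain range was 1.47 to 2.28 (median 2.08) and its liver range 1.36 to 2.41 (median 1.77). The lowest heart or muscle array lay above all brain and liver arrays. The heart exceeded the liver by 2.36 and the brain by 2.17 (standard error 0.20, limma adjusted p = 3.7e-09 and 1.24e-08). Heart and muscle (0.42, adjusted p = 0.103) and liver and brain (-0.19, adjusted p = 0.398) did not differ beyond their spread, but both pairs passed after quantile normalization (0.60, adjusted p = 0.0145, and -0.65, adjusted p = 0.00421).

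*Ly6c1* had the order heart, muscle, brain, liver by both probes. By the first probe it ran from 5.86 to 6.86 (median 6.59) in the heart and from 5.85 to 6.33 (median 6.09) in the muscle. Its brain range was 3.92 to 4.58 (median 4.41) and its liver range 2.52 to 3.45 (median 2.85). The liver was lower than the brain by 1.45 and lower than the heart by 3.60 (standard error 0.17, limma adjusted p = 1.81e-07 and 3.23e-13). By the second probe, whose liver range was -2.86 to -2.03 and heart range 2.46 to 3.92, the liver was lower than the brain by 4.10 and than the heart by 5.74 (standard error 0.18). The probes thus differed in the size of the liver deficit, and their correlation over the 24 arrays was 0.93. Heart and muscle differed by 0.42 by the first probe (adjusted p = 0.0525) and by 0.71 by the second (adjusted p = 0.00291), and the first probe passed the threshold with the mouse as a replicate block (adjusted p = 0.0481).

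Around their tissue means, *Ly6a* and *Ly6c1* went together from array to array. The Pearson correlation of their deviations from the tissue mean was 0.92 over 24 arrays, and that of *Ly6e* was 0.74 with *Ly6a* and 0.73 with *Ly6c1*. The deviations of *Ly6d* were not related in this way (0.08 with *Ly6e*, 0.12 with *Ly6a* and 0.07 with *Ly6c1*). The 24 points share 6 mice, 3 slides and the scaling of each array, and the values are a description. Whether transcripts of close paralogs, *Ly6c2* for *Ly6c1* and *Ly6a2* for *Ly6a*, add to both signals was not tested.

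**Figure D4:**
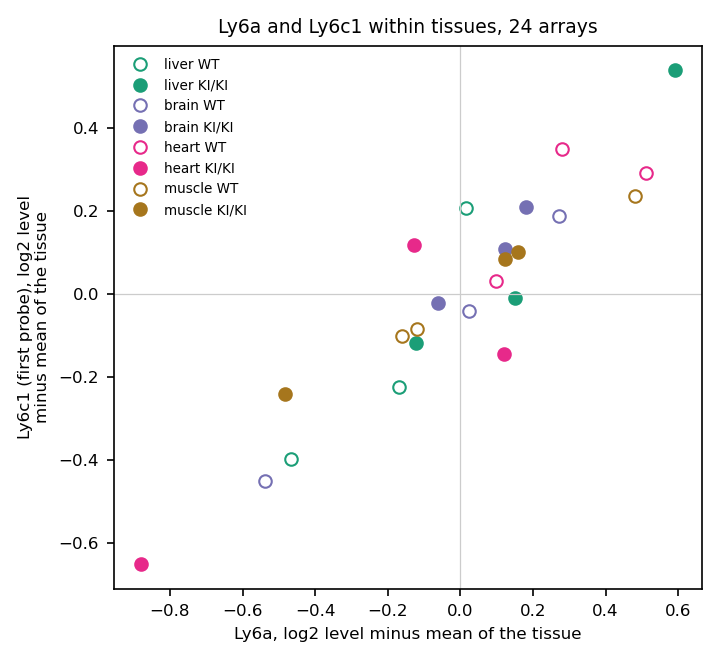
Deviation of the log2 level from the mean of its tissue for *Ly6a* (x axis) and the first *Ly6c1* probe (y axis) on the 24 arrays, colored by tissue, open for WT and filled for KI/KI mice. The points fall along a line (Pearson correlation 0.92), and the KI3 heart lies lowest on both axes.

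*Ly6h* was a brain transcript on these arrays. Its first probe ran from 6.54 to 6.94 (median 6.68) in the brain and from -4.33 to 3.69 (median -1.25) in the muscle. Its heart range was -5.54 to -2.09 (median -3.78) and its liver range -5.28 to -4.63 (median -4.72). The brain exceeded the muscle by 7.63, the heart by 10.50 and the liver by 11.53 (standard error 0.65, limma adjusted p = 3.05e-09, 3.54e-11 and 3.5e-12). The second probe ran from 3.20 to 3.95 in the brain and was not well above background on any liver or heart array, where it had mean levels of -8.15 and -7.33. The brain was at least 839-fold higher than the liver and at least 606-fold higher than the heart by this probe, taking for each dim array the lowest signal well above background. The muscle exceeded the heart by 2.87 (adjusted p = 0.00133) and the liver by 3.90 (adjusted p = 2.59e-05) in the fit of 24 arrays. Among the WT arrays alone the heart minus muscle difference was -1.58 (adjusted p = 0.127). With the slide as a block it was -1.76 (adjusted p = 0.153), and the liver minus muscle difference was -2.04 (adjusted p = 0.294).

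The genes most like each member across the 24 arrays were taken from 17926 other genes by their Pearson correlation. For *Ly6d* they were *Alas2* (0.92), the erythroid enzyme of heme synthesis, *Wdr92* (0.92) and *Siglecg* (0.91), a lectin of B cells. *Alas2* had mean levels of 5.79 in liver, 6.95 in heart, 0.72 in brain and 1.64 in muscle arrays. After removal of the tissue means the correlations with *Ly6d* were 0.50, 0.41 and 0.65. For *Ly6e* they were *Pgls*, an enzyme of the pentose phosphate pathway, the mannosidase *Man2b2* and the sphingomyelinase *Smpd2* (0.97, 0.97 and 0.96). Their correlations with *Ly6e* after that removal were 0.76, 0.76 and 0.73.

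For *Ly6a* the closest were *Foxs1*, *Apol10b* and *Aplnr*, the apelin receptor (0.97, 0.96 and 0.96), and for *Ly6c1* the chaperone *Cryab*, the laminin chain *Lamb2* and *Notch3*, a receptor of vascular mural cells (each 0.98). Without the tissue means the correlations were 0.76, 0.78 and 0.66 for *Ly6a* and only 0.49, 0.51 and 0.48 for *Ly6c1*. For *Ly6h* the closest included the sialyltransferase *St6galnac5* (0.99, well above background on 10 arrays) and *Plppr3* (0.98). After removal of the tissue means these correlations were 0.87 and 0.86 for *Ly6h*, and the KI3 muscle is among the arrays they rest on.

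The wider Ly6/uPAR family also differed between tissues. Of 33 family genes tested, 1 probe each, 32 were called in at least 1 contrast of a tissue with the mean of the other 3, all but *Tex101*. Brain arrays were higher for 9 genes and lower for 19, liver arrays for 12 and 14, heart arrays for 14 and 8, and muscle arrays for 13 and 9. The share of all probes called in these contrasts was 77.2% for liver, 77.2% for brain, 57.5% for heart and 61.8% for muscle. The median brain contrast was -0.91 over the family genes and -0.39 over all probes. Among 11 other genes of the Ly6 cluster, 1 was higher in the brain and 9 were lower. Of the lower genes, *Ly6f* was well above background in the brain only on the KI2 array. Levels below background also differed between tissues. *Pate4*, not well above background on any array, had mean levels of -8.42 in the brain and -7.42 in the muscle. The part of this floor in the contrasts of dim genes was not tested.

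*Gpihbp1*, the endothelial protein that holds lipoprotein lipase, lies beside *Ly6h* and was lowest in the brain, where *Ly6h* was highest. Its heart levels were 4.58 to 5.65, its muscle levels 3.83 to 4.48, its liver levels 3.71 to 4.02 and its brain levels -2.83 to -2.39, and the brain contrast was -7.01 (standard error 0.12, limma adjusted p = 3.99e-18). *Lynx1*, beside *Ly6d*, had levels of -1.81 to -0.998 in liver arrays and of 4.30 to 6.31 over the other 3 tissues, a liver contrast of -6.52 (standard error 0.18, limma adjusted p = 4.55e-17). *Cd59a*, an inhibitor of complement lysis, had a brain contrast of -3.31 (standard error 0.16, limma adjusted p = 4.71e-13).

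The other family genes with a brain contrast above 5 were *Lypd1*, *Lypd6b* and *Lypd6*, relatives of *Lynx1* and *Ly6h* that act on neuronal receptors, and they were chosen after their values were seen. *Lypd1* ran from 1.81 to 3.12 and *Lypd6b* from 1.18 to 2.03 in the brain. Neither was well above background on any liver array, and in the brain *Lypd1* was at least 383-fold higher than in the liver and *Lypd6b* at least 242-fold higher. In the muscle *Lypd1* was well above background on 2 of 6 arrays and *Lypd6b* on 1, and in the heart on 4 and 6. *Lypd6* was higher in the brain by 5.31 (standard error 0.28), with 4 of 6 liver arrays well above background, and by 0.23 by its dimmer probe.

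**Figure D5:**
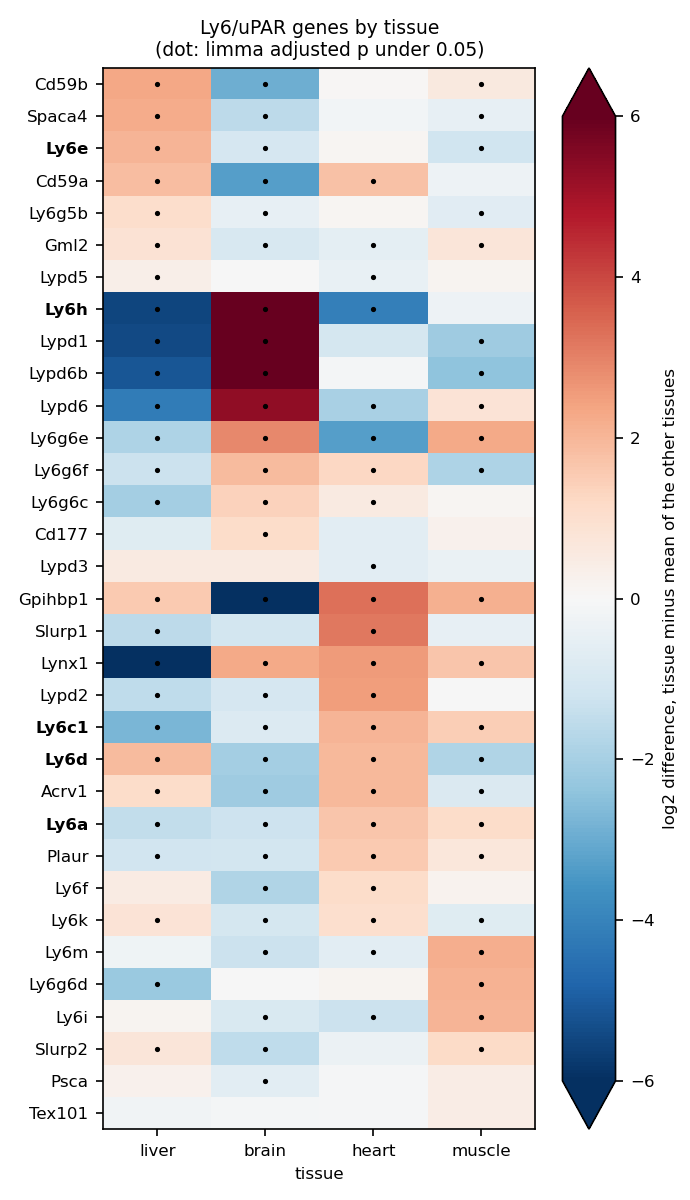
Log2 difference of each tissue (columns) from the mean of the other 3 tissues (color, blue lower and red higher, capped at 6 in either direction) for 33 Ly6/uPAR genes (rows, the 5 members in bold), with a dot where the limma adjusted p is under 0.05. *Ly6h* is high in the brain, *Ly6e* in the liver, *Ly6a* and *Ly6c1* in heart and muscle, and *Ly6d* in liver and heart.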

How the data were processed

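Per the files and the deposited text, the authors hybridized each RNA to a single-color Agilent array, and the intensity used here is the scanner software's processed signal (Feature Extraction 12.0.3.1), background-corrected and not normalized between arrays. The authors also gave a table of score values for the whole series, which are z-scores of log10 signals within an array. For each of the 24 arrays, recomputing them gave values at most 0.005 away, and the medians of its columns were -0.27 to -0.11. These z-scores are the authors' normalization within an array. For the array analysis the methods point to an earlier description, and a test for the arrays is not given in the sources used here.

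Control spots and outlier spots were left out, the spots of each of 55681 probes were averaged on the log2 scale, and the 75th percentile of the array was subtracted. Probes were named through their accession with RefSeq (GRCm38.p6), 28331 in all. A probe entered the test of a tissue if at least 3 of its 6 arrays showed it well above background, and the test between tissues if any tissue did. Tests used limma 3.58.1 (R 4.3.3, package data.table, version 1.17.8, statmod 1.5.0), two-sided, with Benjamini-Hochberg adjustment over all tested probes. Where 1 probe stands for a gene, it is the one with the highest mean level. "First" and "second" probes follow that order. A marker sum is the log2 of the summed linear levels of 1 probe per gene. The fits were tested on simulated data.

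The members, the gene lists and the rule for named genes were chosen with earlier results of these data known. That rule names all members, family genes with an unadjusted p under 0.05 outside the liver or without overlap in the liver, the 3 family genes with the highest level in each tissue, the 3 genes most correlated with each member (1 of them is not reported here), and at most the 3 brightest markers of a list. Of 16 interferon-induced genes, 14 had a probe.

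The same mouse gave all 4 tissues, per the labels, so the mouse was tried as a replicate block. Over 36 pairs of tissues of 1 mouse, the correlations of deviations from the group means ran from -0.30 to 0.36 over 28737 probes, with a median of 0.07 and 16 pairs above 0.1, and limma's consensus correlation was 0.03. Liver arrays were on 1 slide, as were muscle arrays, and each slide with brain or heart arrays held equal numbers of both genotypes. Alternatives were quantile normalization, normexp (offset 50, on median signals), the z-scores, other filters, age, slide or mouse as a block, trend and robust eBayes, other probes, WT arrays alone and each mouse left out. P-values measure the spread between 3 mice per genotype.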

Additional observations from a re-analysis of the deposited data

Results flagged for a closer look

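For a pair of probes every KI/KI mouse lay above every WT mouse in the liver and below every WT mouse in the heart, as at 65 (0.207%) of 31326 probes measured in both tissues. Of these probes, 2.61% lay higher in every KI/KI liver and 9.16% lower in every KI/KI heart. This difference between tissues was not tested, because the liver contrast chose the genes. For the second probe of *Ly6c1* the KI/KI minus WT difference was 0.44 in the liver and -0.74 in the heart. For the first probe of *Lynx1* it was 0.45 in the liver and -0.79 in the heart. The second *Lynx1* probe was well above background on 2 of 6 liver arrays only. In the heart its genotypes overlapped, with a difference of -0.26. Groups of 3 mice were not searched for outliers.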

How the results depend on the processing

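The liver difference of *Ly6d* stayed positive in all 15 alternatives and ran from 1.23 to 1.58 with each mouse left out. On the scale of the authors' z-scores it was 0.33, in units of the SD of an array. Because the genes were chosen by this difference and the genotypes did not overlap, leaving out a mouse could not turn its sign. These values describe its size and are not a test of it. The count of family probes called between the genotypes was 0 in the brain, heart and muscle in every alternative, with the mouse as a replicate block (0) and without it (0) included, and at an unadjusted p under 0.05 it was 0 to 3, 0 to 3 and 0 to 5. The comparison of genotype effects between tissues also called 0 members throughout. Calls between tissues numbered 20 (slide as a block) to 26 of 30, with 24 under the replicate block, and 28 to 41 family genes were called. The number of family genes tested changed with the filter, from 33 in the main fit to 43 without a filter, so these counts have unlike bases. Of 310 recomputed genotype differences of single genes 20 had the other sign, and of 540 tissue differences 7, none of them called. After quantile normalization the sign turned for *Ly6h* in the brain (0.000425), *Ly6e* (1.47e-05) and *Ly6c1* (0.102) in the muscle, and *Ly6d* between liver and heart (0.0101). *Ly6d* between brain and muscle was 0.0217 with z-scores and 0.498 with WT arrays alone, and between liver and heart 0.0562 without the heart arrays of KI1 and KI3 and the muscle array of KI3. With single mice left out, the liver genotype difference ran from -0.220 to 0.324 for *Ly6e*, from 0.221 to 0.577 for *Ly6a*, from 0.0748 to 0.449 for *Ly6c1* and from -0.236 to 0.0873 for *Ly6h*, so that it took either sign for *Ly6e* and *Ly6h*. The heart difference ran from 0.258 to 0.743 for *Ly6d*, from -0.828 to -0.365 for *Ly6e*, from -0.801 to -0.300 for *Ly6a*, from -0.622 to -0.238 for *Ly6c1* and from 0.325 to 1.49 for *Ly6h*. For *Ly6d* it ran from -1.28 to -0.406 in the brain and from 0.0378 to 0.797 in the muscle, for *Ly6h* from 2.15 to 4.64 in the muscle and for *Ly6c1* from 0.0255 to 0.344 in the brain. It also ran from -0.564 to 0.0661 for *Ly6e*, from -0.0676 to 0.338 for *Ly6a* and from -0.184 to 0.0185 for *Ly6h* in the brain, and from -0.312 to 0.10, from -0.248 to 0.0740 and from -0.0944 to 0.0764 for *Ly6e*, *Ly6a* and *Ly6c1* in the muscle. The tissue difference ran from -0.152 to 0.0798 for *Ly6d* between liver and heart and from -0.00269 to 0.436 for *Ly6e* between brain and muscle. The slide block and the fits without single arrays were chosen after seeing the data.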
